A study of Mus musculus with 6 samples.

Results

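Notch signalling genes were examined as a set of 10 named genes among the 32479 rows of a table of 6 RNA sequencing libraries. The set was chosen by name, comprised 4 receptors (Notch1, Notch2, Notch3 and Notch4), 3 ligands (Jag1, Jag2 and Dll4) and 3 target genes (Hey1, Heyl and Hes1), and all 10 were found once in the table. The libraries carry the label cardiac fibroblasts (primary cells) and come from C57BL/6J mice, with 3 in the Control group and 3 in the CCl4 group (written CCL4 in the labels), which was treated with carbon tetrachloride. Repeated dosing with this solvent scars the liver. The series was designed to ask how liver cirrhosis acts on the heart. The sources used here give no dose, route or duration of CCl4, no age or sex of the mice, and no statement on a vehicle for the controls. Liver scarring was not measured in these data.

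Notch proteins are single-pass receptors at the cell surface that are activated by ligands of the Jagged and Delta-like families on neighbouring cells. Binding exposes the receptor to a metalloprotease and then to gamma-secretase, which frees the intracellular part. That part enters the nucleus, joins the DNA-binding protein RBPJ and a Mastermind coactivator, and switches on repressors of the HES and HEY families. In the heart and its vessels Notch1, Notch4 and Dll4 are known from endothelial cells, and Notch3 and Heyl from pericytes and vascular smooth muscle, where Jagged ligands of the endothelium act on Notch3.

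Values are FPKM as the authors deposited them, fragment counts scaled to gene length and to the mapped fragments of a library, so levels of different genes can be set side by side per length. Between 10737 and 11220 rows per library had at least 1 FPKM. The 37 mitochondrially encoded rows gave 48.6% to 50.7% of the FPKM sum in controls and 52.0% to 53.2% in CCl4 libraries. That sum was 519609 to 542738 in controls and 588660 to 602763 in CCl4 libraries. The libraries hold RNA of several cell types. The summed FPKM of 12 cardiomyocyte markers, led by Mb, was 13515 to 15559 in controls and 18518 to 20447 in CCl4 libraries. That of 12 fibroblast markers, led by Gsn, was 463.4 to 757.4 and 611.7 to 619.3. That of 15 endothelial markers, led by Eng, was 197.3 to 225.5 and 222.3 to 243.9, and that of 15 pericyte and smooth muscle markers, led by Des, which heart muscle also makes, was 739.7 to 848.9 and 520.4 to 600.2. No marker of these 4 lists was at 0 in all libraries. In CCl4 libraries 6 of the 12 fibroblast markers rose and 0 fell (also 0 lower at an unadjusted p under 0.05 in limma), and of the 12 cardiomyocyte markers 2 rose and 1 fell, beside 9.64% higher and 22.2% lower among all tested rows at an adjusted p under 0.05. The summed FPKM of the globins Hbb-bs and Hba-a1 was 329.7 to 1357.8 in controls and 1309.6 to 2422.3 in CCl4 libraries, while that of 8 other macrophage and blood markers was 199.7 to 270.7 and 207.7 to 243.0. The part of these shifts in the Notch values was not tested. In such mixed RNA, fewer cells of a type and less RNA per cell cannot be told apart. The design names 3 mice per group, and the 3 libraries of a group were taken as 1 per mouse, which the labels do not state outright.

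Of the 10 Notch genes, the receptors Notch1 and Notch4 fell in CCl4 libraries and the other 8 did not pass the test. Notch1 was at 3.26 ± 0.279 FPKM in controls and 2.1 ± 0.265 FPKM after CCl4, and Notch4 at 4.97 ± 0.575 and 3.31 ± 0.392 FPKM (SD, n = 3 each). No member rose at an adjusted p under 0.05 in limma, and 0 rose at an unadjusted p under 0.05, while 3 were lower at that level, where 44.5% of all tested rows stood, 14% higher and 30.5% lower. Among all 10995 tested rows 31.8% were called in either direction, with 22.2% of tested rows lower and 9.64% higher. The 2 calls among 10 members, both lower, are thus close to the share of all rows. The median log2 fold change, CCl4 minus control on the log2(FPKM + 1) scale, was -0.10 over the 10 members and -0.09 over all tested rows. All 10 members had a mean of at least 1 FPKM, the limit for testing.

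**Figure D1:**
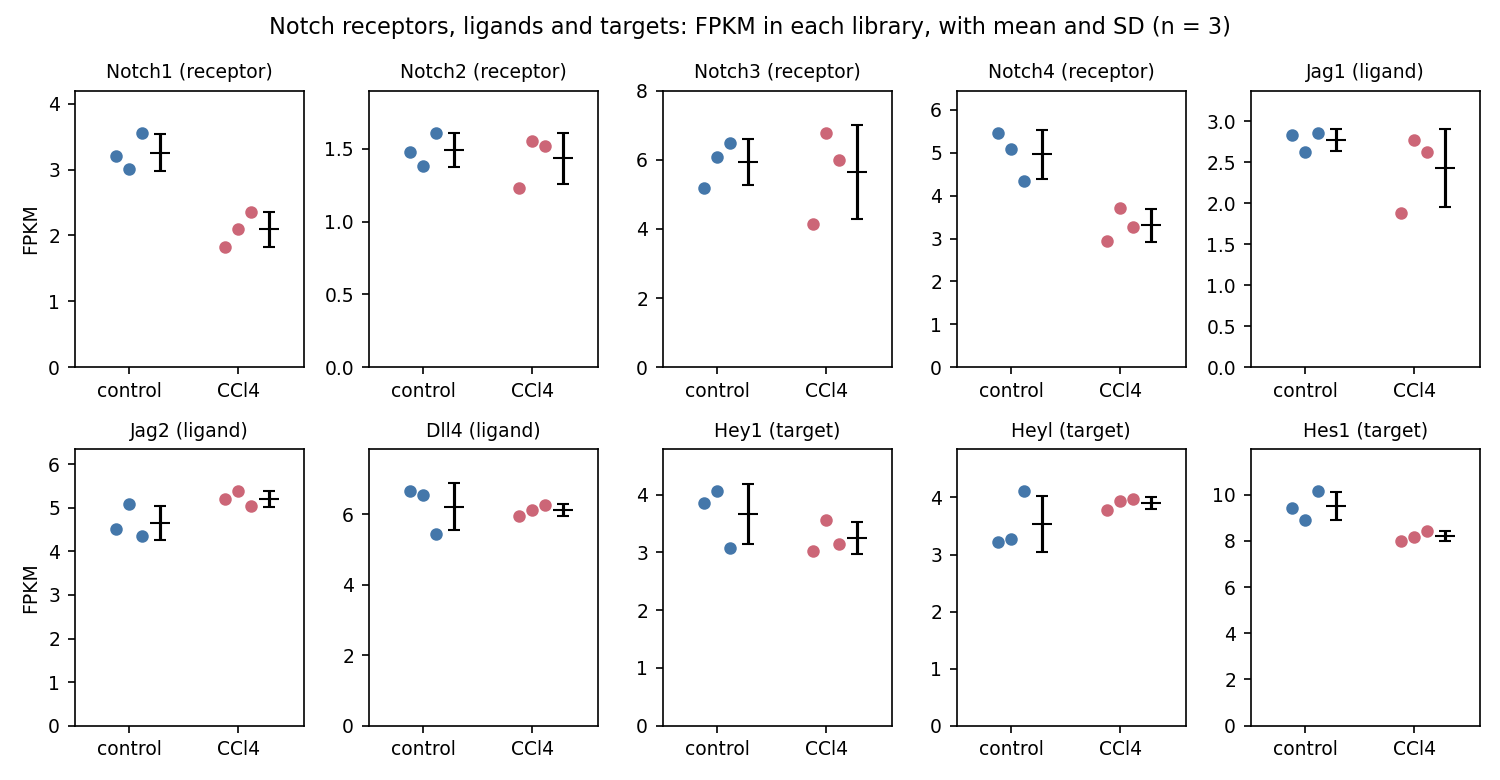
FPKM (vertical axes, starting at 0) of the 10 Notch genes in 3 control (blue) and 3 CCl4 (red) libraries, with the mean and SD of each group as black bars. Notch1, Notch4 and Hes1 are the genes whose groups do not overlap, all lower in CCl4, with Notch1 at 3.01 to 3.56 against 1.83 to 2.36 FPKM.

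Receptors. Notch1, the receptor of arterial and sprouting endothelium, lies on chromosome 2 at 26457903 to 26516663 on the minus strand (GRCm38, GENCODE M21). Its FPKM was 3.20, 3.01 and 3.56 in control replicates 1 to 3 and 1.83, 2.1 and 2.36 in CCl4 replicates 1 to 3. Every CCl4 library was below every control library. The log2 fold change was -0.46 ± 0.09 (SE; adjusted p = 0.00781 in limma), and 10.1% of tested rows had a lower one.

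Notch4, a receptor made mainly by endothelial cells, lies on chromosome 17 at 34564268 to 34588503 on the plus strand. It was at 5.47, 5.09 and 4.34 FPKM in controls and 2.94, 3.72 and 3.27 FPKM after CCl4. The groups did not overlap here either, with the lowest control library at 4.34 and the highest CCl4 library at 3.72 FPKM. The log2 fold change was -0.47 ± 0.10 (SE; adjusted p = 0.0107 in limma). Both calls held in each of the 18 alternatives in which these genes were tested, from -0.65 to -0.39 for either gene.

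The sequences upstream of the RefSeq starts of the 2 receptor genes that fell are shown because both were lower in the same libraries. They are RefSeq promoter windows on GRCm38.p6, which begin 250 bases before the RefSeq start and stop at the first GENCODE exon base met within the window, read 5′ to 3′ on the strand of the gene. For Notch1 the RefSeq start at 26503822 is the 5′ end of its longest GENCODE transcript (9488 bases, 34 exons). The window nonetheless lies within the gene span given above, in an intron of a short transcript of 512 bases that starts 12591 bases further upstream, at 26516663. For Notch4 the window lies outside all annotated transcripts of the gene. Capitals mark CAGGAA, a core bound by ETS factors, which are numerous in endothelium, and GGGCGG, the GC box bound by SP1-type factors, on either strand.
Notch1, chr2:26503825-26504072, minus strand: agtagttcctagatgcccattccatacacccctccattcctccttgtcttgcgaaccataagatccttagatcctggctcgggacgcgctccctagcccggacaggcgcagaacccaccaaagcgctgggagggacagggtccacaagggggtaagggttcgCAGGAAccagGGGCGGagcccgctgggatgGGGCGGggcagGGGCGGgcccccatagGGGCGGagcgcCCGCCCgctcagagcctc
Notch4, chr17:34564045-34564267, plus strand: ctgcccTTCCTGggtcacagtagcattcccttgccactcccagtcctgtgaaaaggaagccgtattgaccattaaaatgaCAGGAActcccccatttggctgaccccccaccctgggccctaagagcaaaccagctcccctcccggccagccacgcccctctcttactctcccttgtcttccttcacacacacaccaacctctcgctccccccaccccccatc
The windows differ in make-up. That of Notch1 was 66% G and C with 16 CpG pairs and 5 GC boxes, and that of Notch4 58.4% with 4 CpG pairs and 0 GC boxes, counted over all 250 bases. CAGGAA stood at 1 place before Notch1 and 2 places before Notch4, and in none of the other 5 windows. This spelling was searched after the sequences had been seen. It is in 25.7% of the 32851 RefSeq windows of this length, and the GC box in 32.7%. The RBPJ core TGGGAA (21.6% of windows), the AP-1 site TGANTCA (6.75%) and the ETS spelling CCGGAA (12%) had no match, on either strand, in the windows of the 7 members with an entry, which are the 4 receptors and 3 ligands. Hey1, Heyl and Hes1 had no entry.

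Notch3, the receptor of pericytes and vascular smooth muscle, was at 5.19, 6.09 and 6.49 FPKM in controls and 4.13, 6.78 and 5.98 FPKM after CCl4. CCl4 replicate 1 was the lowest of all 6 libraries and CCl4 replicate 2 the highest, and the groups overlapped. The log2 fold change was -0.08 ± 0.15 (SE; adjusted p = 0.714 in limma), and 0.09 without CCl4 replicate 1 (adjusted p = 0.542). In the same library Jag1 and the smooth muscle genes Myh11 (3.04 FPKM, against 7.86 and 9.09 in the other CCl4 libraries) and Tagln (6.28 against 15.1 and 18.1) were also the lowest of the CCl4 group. Myh11 and Tagln were chosen here after their values were seen, and their part in the Notch3 value was not tested.

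Notch2, a receptor widely made by stromal and blood cells, was the least abundant member, at 1.48, 1.38 and 1.61 FPKM in controls and 1.23, 1.55 and 1.52 FPKM after CCl4. The groups overlapped (log2 fold change -0.03 ± 0.09, SE; adjusted p = 0.786 in limma). The summed FPKM of the 4 receptors was 15.3 to 16.0 in controls and 10.1 to 14.2 in CCl4 libraries. Of that sum Notch3 took 37.8% ± 3.54 in controls and 44.7% ± 3.64 in CCl4 libraries, and Notch2 9.52% ± 0.609 and 11.6% ± 0.594. Notch1 took 20.8% ± 1.46 and 17.0% ± 1.84, and Notch4 31.8% ± 4.33 and 26.7% ± 2.1 (SD, n = 3 each). Two-sided exact permutation tests gave p = 0.1 for Notch1, Notch2 and Notch3, the smallest p that 3 against 3 libraries allow, and p = 0.2 for Notch4. Adjusted over 7 such shares, p was 0.14 and 0.233.

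Ligands. Dll4, the Delta-like ligand of arterial and sprouting endothelium, lies on chromosome 2 at 119325784 to 119335962. It was at 6.66, 6.55 and 5.45 FPKM in controls and 5.95, 6.13 and 6.28 FPKM after CCl4. All 3 CCl4 libraries lay within the control range (log2 fold change -0.02 ± 0.09, SE; adjusted p = 0.901 in limma).

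Jag1, the Jagged ligand needed for the smooth muscle coat of vessels, was at 2.83, 2.62 and 2.86 FPKM in controls and 1.88, 2.77 and 2.63 FPKM after CCl4. Only CCl4 replicate 1 lay outside the control range. The log2 fold change was -0.15 ± 0.11 (SE; adjusted p = 0.336 in limma), and -0.03 without that library.

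Jag2, the second Jagged ligand, was at 4.51, 5.08 and 4.36 FPKM in controls and 5.19, 5.38 and 5.03 FPKM after CCl4. The groups overlapped through control replicate 2 alone, and the log2 fold change of 0.14 ± 0.08 (SE; adjusted p = 0.212 in limma) was the highest of the 10 members. Dll4 was the most abundant ligand in all 6 libraries, with 45.5% ± 2.31 of the summed FPKM of the 3 ligands in controls and 44.6% ± 1.45 in CCl4 libraries (SD, n = 3 each). The two-sided exact permutation p was 0.5. Jag2 took 34.1% ± 1.74 and 37.9% ± 1.90 of it (exact permutation p = 0.1).

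Targets. Hes1, a repressor switched on by Notch and by other signals, was the most abundant of the 10 members, and lies on chromosome 16 at 30064384 to 30067796. It was at 9.44, 8.92 and 10.15 FPKM in controls and 8.01, 8.16 and 8.44 FPKM after CCl4. The groups did not overlap, but the difference did not pass the test (log2 fold change -0.19 ± 0.07, SE; adjusted p = 0.0866 in limma). It passed after rescaling to a common sum (TPM; -0.34, adjusted p = 0.0133) and with mitochondrially encoded rows removed (-0.26, adjusted p = 0.0396), scalings that lower most genes. Groups that do not overlap were seen for 48.7% of all tested rows and for 3 of the 10 members, all 3 lower in CCl4, a direction that 34% of tested rows showed.

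Hey1, a repressor of arterial endothelium and endocardium, was at 3.86, 4.06 and 3.07 FPKM in controls and 3.03, 3.57 and 3.15 FPKM after CCl4. Control replicate 3 lay among the CCl4 libraries (log2 fold change -0.13 ± 0.10, SE; adjusted p = 0.358 in limma). Heyl, a target known from smooth muscle cells and pericytes, was at 3.22, 3.28 and 4.11 FPKM in controls and 3.78, 3.94 and 3.98 FPKM after CCl4. The groups overlapped through control replicate 3 (log2 fold change 0.12 ± 0.09, SE; adjusted p = 0.357 in limma). None of the 3 targets was called in limma (0 higher and 1 lower at an unadjusted p under 0.05). Among all tested rows 31.8% were called, with 14% higher and 30.5% lower at an unadjusted p under 0.05.

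In order of mean level per length in control libraries, Hes1 stood first, followed by Dll4, Notch3, Notch4, Jag2, Hey1, Heyl, Notch1, Jag1 and Notch2. The library ranges of neighbours overlapped from Dll4 through Notch3 and Notch4 to Jag2, and from Hey1 through Heyl to Notch1. They were apart between Hes1 and Dll4, Jag2 and Hey1, Notch1 and Jag1, and Jag1 and Notch2. In CCl4 libraries Notch4 stood below Jag2 and Heyl, and Notch1 stood below Jag1, with ranges of the latter pair that overlapped.

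**Figure D2:**
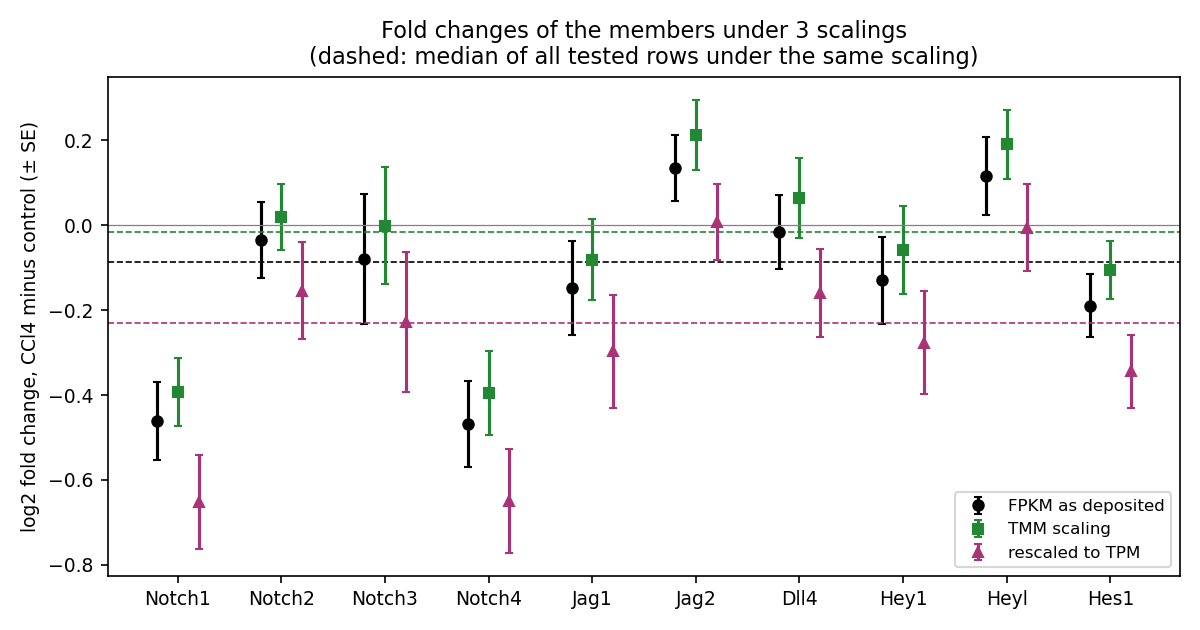
Log2 fold change (CCl4 minus control, ± SE) of the 10 Notch genes with FPKM as deposited (black circles), TMM scaling (green squares) and rescaling to TPM (purple triangles), with the median of all tested rows under each as a dashed line (-0.09, -0.02 and -0.23). Notch1 and Notch4 lie below these medians under all 3 scalings, at -0.46 and -0.47 as deposited.

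The direction of small differences depended on how libraries were scaled, and all fold changes are to be read against the median of all rows. That median was -0.09 as deposited, -0.23 as TPM and -0.02 with trimmed mean of M-values (TMM) scaling. Of all calls 30.3% were higher as deposited, 12.8% as TPM, 48.3% with TMM, 51.3% with quantile and 49.0% with median-ratio scaling. As TPM 44% of rows were called, 5.61% higher and 38.4% lower, beside 3 lower members, and with TMM 29% were called, 14% higher and 15% lower, beside 2 lower members. Dll4 was at 0.06 with TMM and Notch2 at 0.02, and neither passed.

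Notch genes were also set against marker lists, every member against endothelial markers and Notch3, Heyl and Jag1 also against pericyte and smooth muscle markers. The measure was log2(FPKM + 1) of the gene minus the median of the list in the same library. Which cells made these transcripts was not tested. The 15 endothelial markers had a list median of 3.49 ± 0.12 in controls and 3.59 ± 0.07 in CCl4 libraries (SD, n = 3 each). Of all tested rows 9.64% were higher and 22.2% lower. Among these markers the VEGF receptor Kdr rose, the VEGF receptor Flt1 fell and 13 were not called, with a median log2 fold change of 0.09. Relative to that list Notch1 was at -1.40 ± 0.03 in controls and -1.96 ± 0.06 in CCl4 libraries, and Notch4 at -0.92 ± 0.25 and -1.48 ± 0.11. Neither gene's groups overlapped. The differences were -0.56 and -0.57, against -0.46 and -0.47 without the markers. Hes1, Jag1 and Notch2 were also lower relative to the list without overlap, with differences of -0.29, -0.24 and -0.13. The groups of Dll4, Jag2, Hey1, Heyl and Notch3 overlapped. The list median was 0.10 higher in CCl4 libraries, while the median log2 fold change of all tested rows was -0.09. A typical row thus also lies lower relative to this list, and the share of all rows that do so without overlap was not computed. Where groups did not overlap the two-sided exact permutation test gave p = 0.1, the smallest possible, and 0.163 adjusted over 13 such comparisons.

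Other genes of arterial endothelium were split. Of 7 tested arterial markers Unc5b rose, Sema3g, Sox17 and Hey2 fell, and Gja4, Gja5 and Efnb2 were not called. Among all tested rows 9.64% were higher and 22.2% lower. Of 3 tested endocardial markers Nfatc1 fell, while Plvap, the most abundant of them, was at 3.27, 1.96 and 6.18 FPKM in controls and 7.64, 5.09 and 4.28 FPKM after CCl4 (log2 fold change 0.54, adjusted p = 0.209 in limma). Npr3 was at 3.18 and 1.81 FPKM (adjusted p = 0.0773). Of the markers named here, those that were called were picked for that reason, as were the VEGF receptors above. The uncalled ones complete the tested markers of both lists. The part of these cell types in the Notch values was not tested.

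Against the 15 pericyte and smooth muscle markers Notch3 was at -0.56 ± 0.09 in controls and -1.15 ± 0.12 in CCl4 libraries, Heyl at -1.17 ± 0.03 and -1.56 ± 0.20, and Jag1 at -1.44 ± 0.10 and -2.09 ± 0.05 (SD, n = 3 each; exact permutation p = 0.1 for each). The list median was 3.35 ± 0.12 in controls and 3.86 ± 0.23 after CCl4, a difference of 0.51, while the median log2 fold change of its members was 0.06, and the summed FPKM given above was lower after CCl4. These differences from the list thus rest on how its level is summarised. With a median log2 fold change of -0.09 over all tested rows, a typical row also lies lower relative to this list median. The share of all rows that do so without overlap was not computed. Of the list 5 genes rose, among them the smooth muscle actin Acta2, Des fell and 9 were not called. The shares of all tested rows were 9.64% higher and 22.2% lower.

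**Figure D3:**
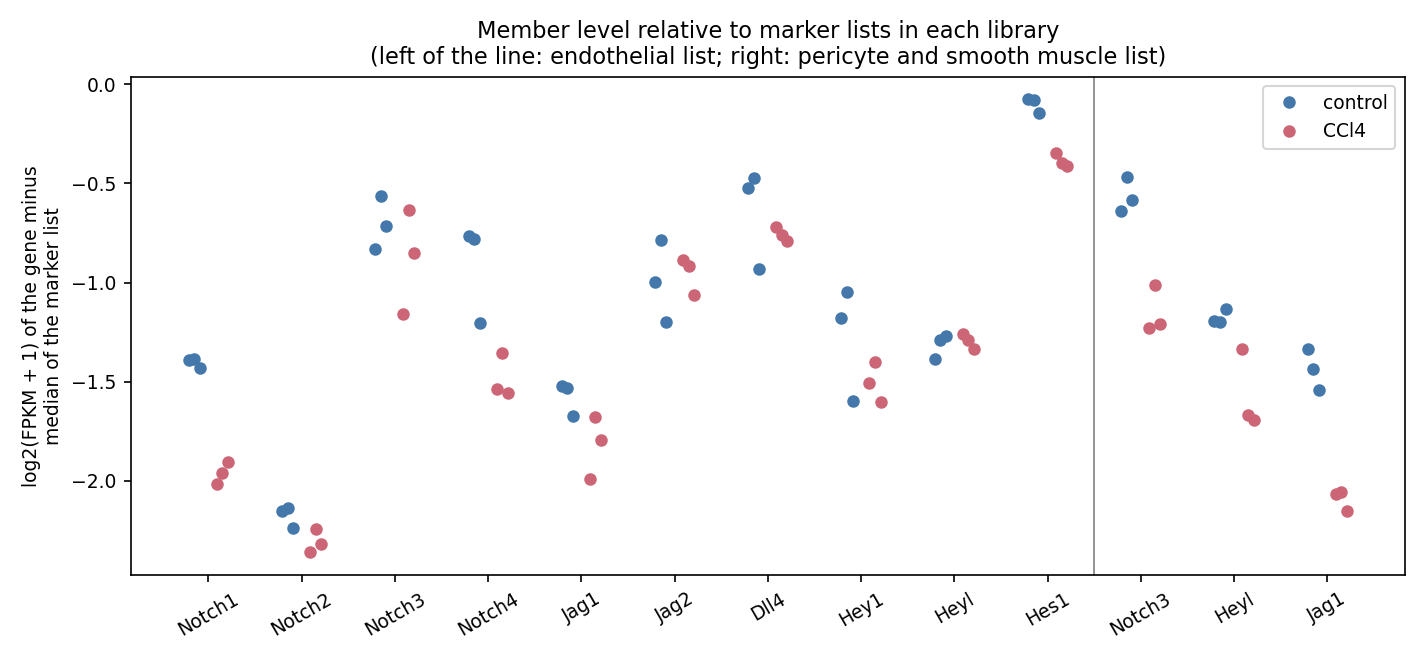
Level of each Notch gene relative to a marker list, as log2(FPKM + 1) of the gene minus the median of the list (vertical axis), in 3 control (blue) and 3 CCl4 (red) libraries, for the endothelial list on the left of the line and the pericyte and smooth muscle list on the right. Notch1 (means -1.40 and -1.96) and Notch4 (-0.92 and -1.48) are lower in every CCl4 library relative to the endothelial list. So are Notch2, Jag1 and Hes1, while the groups of Notch3, Dll4, Jag2, Hey1 and Heyl overlap there.

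Other genes of the pathway were taken from a list of 82, of which 81 were in the table and 64 were tested. In CCl4 libraries 11 rose, 10 fell and 43 were not called, with a median log2 fold change of -0.02 against -0.09 over all tested rows. The called share again lay near the 31.8% of all rows. The 11 rises became 6 without control replicate 2 or CCl4 replicate 2, and 7 without CCl4 replicate 3. Rises among all 10995 tested rows also dropped, from 1060 to 648, 724 and 642 in the same order. With no filter on low values, which raises the number of tested rows to 27449, the calls of Adam17, Neurl3, Nrarp, Cspg4, Mib2, Ep300, Hey2 and Myc were lost (adjusted p 0.0545 to 0.141).

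Genes of the nuclear complex, the coactivators that act with RBPJ, included 4 falls and no rise among 8 tested (median -0.29; 0 rose also at an unadjusted p under 0.05 in limma). Of all tested rows 22.2% were lower and 9.64% higher, so that no rise among so few genes is near the background. The 4 falls are a larger share than that of all rows, but the genes are few and the group was not tested. The acetyltransferase Kat2b (PCAF) fell from 24.3 ± 0.665 to 16.3 ± 2.08 FPKM. The acetyltransferases Ep300 and Crebbp fell from 3.04 ± 0.197 to 2.24 ± 0.208 and from 2.15 ± 0.0929 to 1.48 ± 0.0153 FPKM, and the adaptor Snw1 (SKIP) from 6.69 ± 0.405 to 4.87 ± 0.172 FPKM. The call of Ep300 was lost without control replicate 1 or 3 and without CCl4 replicate 1 or 2 (adjusted p up to 0.0622). Rbpj itself was at 2.74 ± 0.450 and 2.27 ± 0.278 FPKM (adjusted p = 0.222), and Maml1 at 2.78 ± 0.223 and 2.13 ± 0.310 FPKM (adjusted p = 0.0616). These cofactors serve many transcription factors besides RBPJ. Among 12 corepressors Ncor1 and the RBPJ-binding Cir1 fell, by 0.44 and 0.42 on the log2 scale, and the Groucho-type Tle2 rose from 1.09 ± 0.120 to 1.89 ± 0.237 FPKM. The call of Cir1 was lost without CCl4 replicate 3 (adjusted p = 0.054).

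Of the genes that act on ligands and receptors before cleavage, Mib1, the ubiquitin ligase that lets a ligand be pulled into the sending cell, fell from 3.88 ± 0.221 to 2.57 ± 0.146 FPKM (log2 fold change -0.45, adjusted p = 0.00391 in limma). Its relative Mib2 fell from 5.45 ± 0.515 to 4.33 ± 0.0361 FPKM, a call lost with TMM, quantile and median-ratio scaling and on leaving out each library other than control replicate 3 (adjusted p up to 0.108). Numb, an inhibitor that steers receptor traffic, rose from 6.21 ± 0.0874 to 7.88 ± 0.617 FPKM, and the metalloprotease Adam17 from 2.88 ± 0.346 to 4.06 ± 0.408 FPKM. Both calls were lost as TPM (adjusted p = 0.161 and 0.0748) and without control replicate 2, CCl4 replicate 2 or CCl4 replicate 3. Neurl3, of the Neuralized family of ubiquitin ligases, rose by 0.37 on the log2 scale, a call lost in 9 of 18 alternatives, among them leaving out control replicate 1 or 2 or CCl4 replicate 1 or 2 (adjusted p up to 0.139). Adam10, which cleaves ligand-bound receptors, was at 7.16 ± 0.842 and 8.27 ± 1 FPKM (adjusted p = 0.230). None of the 6 glycosyltransferases that modify the receptors was called, with log2 fold changes from -0.03 to 0.16 (0 at an unadjusted p under 0.05). Among all tested rows 31.8% were called, and 44.5% had an unadjusted p under 0.05 in limma. Dll1 was at 1.26 ± 0.0436 and 1.02 ± 0.220 FPKM (adjusted p = 0.216), and Dll3 was listed at 0 in all libraries.

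Further target genes did not move in a single direction. Nrarp, a target that feeds back on the receptor's intracellular part, rose from 3.06, 2.97 and 4.12 FPKM in control to 4.69, 4.94 and 5.02 FPKM after CCl4 (log2 fold change 0.43 ± 0.11, SE; adjusted p = 0.0172 in limma). Hey2, the arterial and ventricular relative of Hey1, fell from 1.28, 1.34 and 1.31 to 0.86, 0.60 and 0.87 FPKM (log2 fold change -0.38 ± 0.09, SE; adjusted p = 0.0162). For both genes the groups did not overlap, and the opposite directions were kept under all scalings tried. The call of Nrarp was lost without control replicate 2, CCl4 replicate 2 or CCl4 replicate 3 (adjusted p 0.0519 to 0.0598), and that of Hey2 without control replicate 2 (0.0522). Bhlhe41, a HES-related repressor of the circadian clock, was listed for that kinship and not as a Notch target. It rose from 2.55 ± 0.220 to 5.03 ± 0.197 FPKM.

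Among genes reported as targets in endothelium, mural cells or heart, which also answer to many other signals, 5 of 12 tested rose and 1 fell, beside 9.64% higher and 22.2% lower among all tested rows (14% and 15% with TMM). The cyclin Ccnd1 rose from 4.93 ± 0.481 to 13 ± 0.416 FPKM, the guidance receptor Unc5b from 1.83 ± 0.419 to 4.24 ± 0.550 FPKM, the VEGF co-receptor Nrp1 from 4.73 ± 0.706 to 7.98 ± 1.33 FPKM and Acta2 from 21.8 ± 2.37 to 46.6 ± 7.97 FPKM. The pericyte proteoglycan Cspg4 rose from 1.29 ± 0.250 to 2.09 ± 0.270 FPKM, a call lost without control replicate 2, CCl4 replicate 2 or CCl4 replicate 3 (adjusted p up to 0.0712). The growth regulator Myc fell from 2.38 ± 0.847 to 0.787 ± 0.315 FPKM. Efnb2, an arterial ephrin, was at 3.12 ± 0.485 and 2.86 ± 0.430 FPKM (adjusted p = 0.572). The lists overlap. Acta2 and Cspg4 were also on the pericyte and smooth muscle list. Unc5b, Gja4, Gja5 and Efnb2 were also on the arterial list, as was Hey2. Values of these genes are the same in both places and not separate observations.

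**Figure D4:**
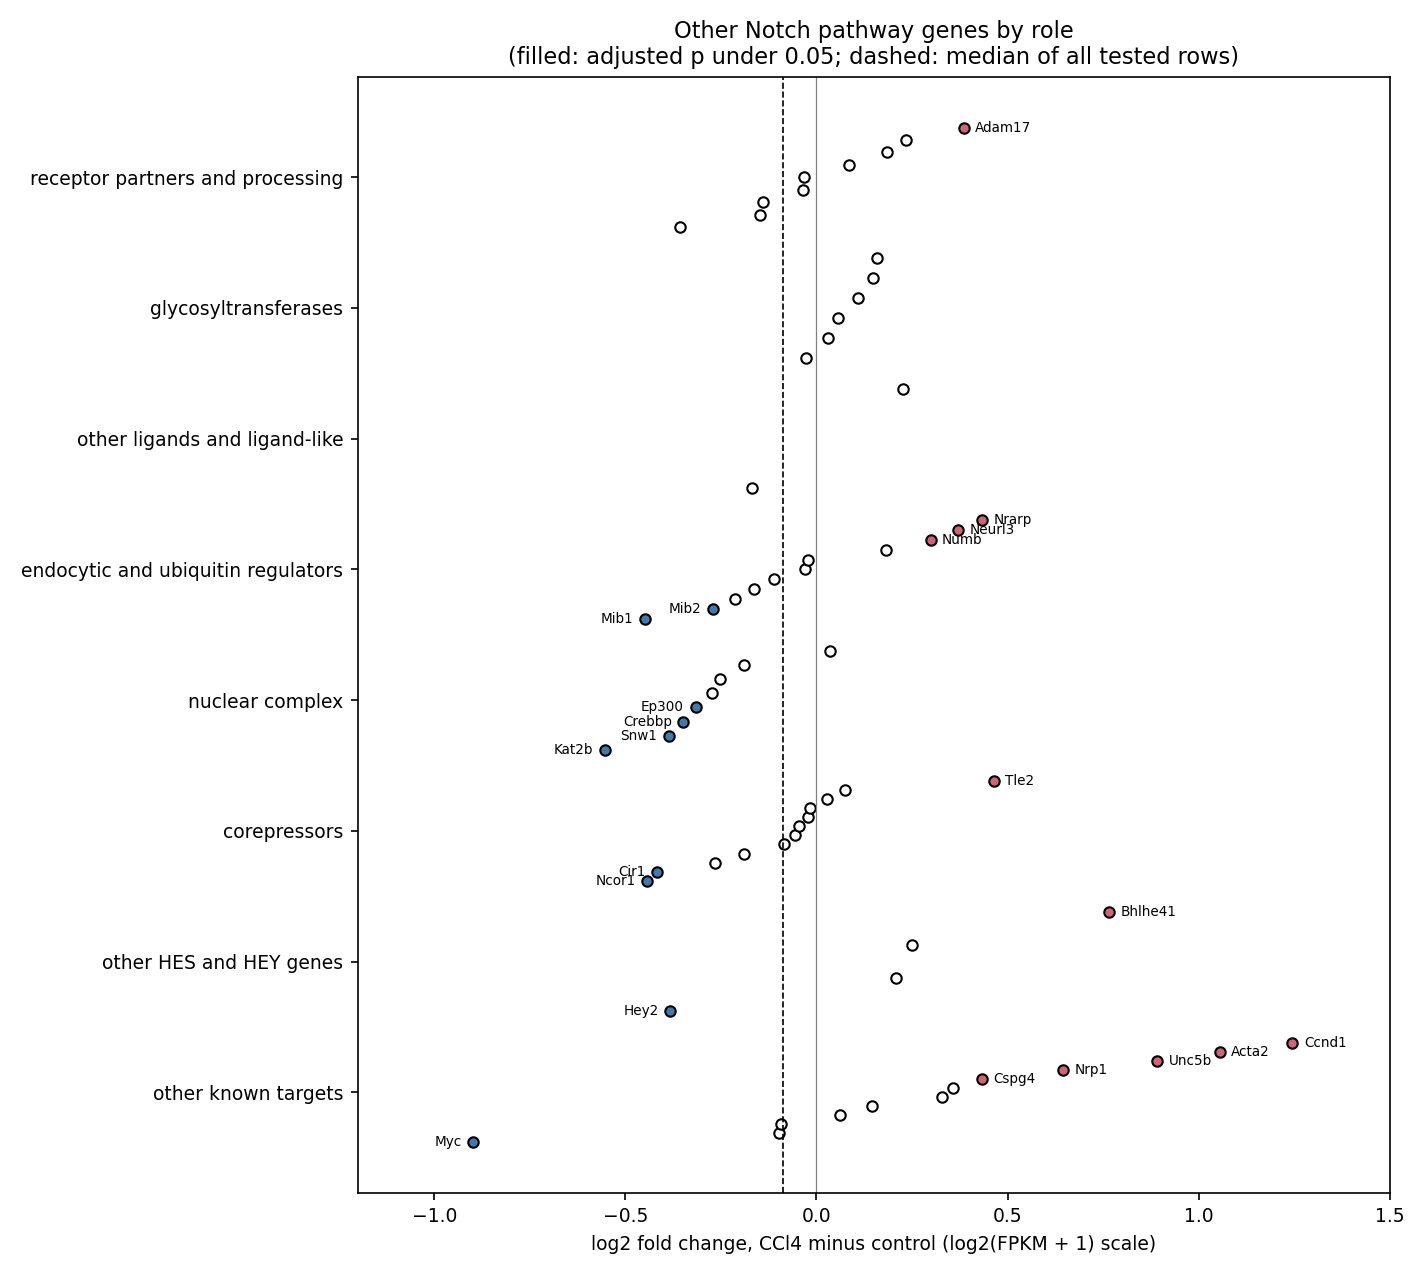
Log2 fold change (horizontal axis, CCl4 minus control, log2(FPKM + 1) scale) of the 64 tested genes of the wider Notch pathway, 1 row of points per role, with filled and named points at an adjusted p under 0.05 (red higher, blue lower) and the median of all tested rows as a dashed line at -0.09. The 4 called genes of the nuclear complex are all lower, and the other known targets range from Myc at -0.90 to Ccnd1 at 1.25.

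The tested rows with the pattern most like that of Notch1, by the root-mean-square difference of centred log2(FPKM + 1) over the 6 libraries, were Pias2 (difference 0.0321), Cd47 (0.0451), Zfp830 (0.0453), Chd2 (0.0461) and Ncor1 (0.0469). Pias2 was at 6.00 ± 0.339 and 4.04 ± 0.451 FPKM and Cd47 at 10.9 ± 0.668 and 7.33 ± 0.473 FPKM. The 6 libraries are shared by all rows, and a fall of like size in all 3 CCl4 libraries is enough to place a row near Notch1.

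Some annotated transcripts overlap exons of the members in GENCODE M21. On the opposite strand 0610009E02Rik and Gm13568 overlap Notch1, Gm17276 overlaps Notch3 and Gm14207 overlaps Dll4, and their own rows reached at most 0.22, 0, 0.48 and 0.88 FPKM. The library protocol marks strand, but the sources used here do not say whether the authors' quantification used it, so fragments of such pairs may not be separated.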

How the data were processed

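The authors' deposited FPKM values were made with StringTie 2.1.6 and the build GRCm38, as the submitters' processing notes list them. For aligner, annotation release and strand setting nothing is given in the sources used here. Libraries were made from oligo(dT)-selected RNA, per the labels' protocols. Low values of single-exon genes did not resolve whole fragments (24.3% to 38.5% within 0.1 of a whole number, where an even spread gives 20%), so depth is unknown and no count test was run.

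Values were transformed to log2(FPKM + 1), which understates the change of low genes. Rows with a mean of at least 1 FPKM (10995) were fitted in R 4.3.3 by limma 3.58.1 (mean-variance trend, two-sided, Benjamini-Hochberg over all rows), called at an adjusted p under 0.05, and the fit was tested on simulated data. Members, pathway and marker lists were chosen with earlier results of these data known. Named were all members, called pathway genes, 8 pathway genes whatever their result (1 of them is not reported here), the 5 rows most like the member with the smallest p, and the most abundant marker of each list the text uses. Members taken relative to markers were compared by exact permutation. Alternatives comprised pseudocounts of 0.1 and 0.01, 2 filters, 5 scalings, 3 variance models, a replicate block and leaving out each library. TMM was computed without weights. Of table symbols 96.8% matched GENCODE M21.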

Additional observations from a re-analysis of the deposited data

How the results depend on the processing

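Notch1 and Notch4 stayed lower and called in each of 18 alternatives, with adjusted p up to 0.0323 and 0.0416, and were not tested at a mean of at least 5 FPKM, where 0 of 3 tested members were called. Leaving out each library gave 2 lower members each time. Small uncalled differences changed sign. Notch2 was at 0.0203 with TMM, 0.0206 with quantile, 0.0222 with median-ratio scaling and 0.0086 when libraries were weighted. Leaving out each library put it between -0.0699 and 0.0268, the latter without CCl4 replicate 1. Notch3 was at 0.0181 with quantile and 0.0017 with median-ratio scaling, and between -0.2058 and 0.0946 over the leave-outs. Dll4 was at 0.0642, 0.0809 and 0.0669 with TMM, quantile and median-ratio scaling, and between -0.0953 and 0.0287 over the leave-outs. Heyl was at -0.0058 as TPM. The cause was not tested. At a mean of at least 5 FPKM 4 pathway genes rose and 4 fell. Of the 4915 rows tested there, 655 were higher and 1510 lower. These 2165 calls are a larger share than the 3501 of 10995 at a mean of at least 1 FPKM. Leaving out each library gave 6 to 11 rises and 8 to 10 falls in the pathway list, and 642 to 1137 higher and 1546 to 2121 lower of all rows. As TPM 617 were higher and 4221 lower, and 1722 were higher with quantile scaling.

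The labels do not say whether equal replicate numbers pair libraries. Deviations of same-numbered libraries from their group means correlated across genes at -0.064, 0.046 and -0.038. Differently numbered ones lay between -0.097 and 0.123, so no pairing was seen, but such values cannot show how the animals were handled. With the replicate block 2 members were lower, 8 pathway genes rose and 8 fell, and 861 of all rows were higher and 1790 lower. The unknown depth sets no interval for single values.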
